A study of Mus musculus with 6 samples.

Results

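Cell division in the lung was described by 36 genes that are transcribed when cells replicate their DNA or pass through mitosis, chosen by symbol from a list, of 25965 genes in the deposited table. The list holds 16 genes of S phase and 20 genes of G2 and M phase. All 36 were found under their symbols and all 36 passed the filter on low values that left 16708 genes for testing. Whole-lung messenger RNA was measured in 3 mice given diphtheria toxin (DT) and 3 given vehicle (PBS), after 7 days in 10% oxygen. All 6 mice were chimeras labelled ZBTB46 DTR, so the controls carried the toxin receptor too. The toxin was started at 40 ng/g on the day before hypoxia (day -1) and kept up at 8 ng/g every 3 days, with 3 doses altogether. The series text couples the receptor to Zbtb46 without giving the construct, and which cells of the chimeras carry it is not stated. Toxin-treated mice without the receptor and mice in normal air are not among these samples, so effects of toxin itself and effects of losing Zbtb46-expressing cells cannot be told apart. The labels give no age, sex, strain or marrow donor.

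Zbtb46 is a transcription factor that marks classical dendritic cells, and it is also transcribed in endothelium and in erythroid progenitors. The study asked which lung processes differ after depletion of classical dendritic cells, in mice protected from hypoxia-induced pulmonary hypertension. Proliferation of vascular wall cells is part of that disease, and hypoxia also drives red cell production. In dividing cells, E2F factors switch on replication genes late in G1, and the MuvB complex with B-Myb and FoxM1 switches on mitotic genes later, through the CHR promoter element and neighbouring CCAAT boxes. These transcripts are made mainly by cycling cells, so their level in whole tissue is used as a guide to the share of cells that divide. How much of each level came from cells outside the cycle was not measured. In bulk tissue, fewer dividing cells and less RNA per dividing cell cannot be told apart.

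The total behind each library was 16766383 to 19084658 reads, and members had between 103 reads (Ccne1 in PBS mouse 2) and 3755 reads (Mki67 in DT mouse 1). Levels are in RPM, the reads of a gene scaled to a common library total, with the SD over 3 mice, and fold changes are log2 of DT over PBS on the log2(RPM + 1) scale with their standard error. Nothing in the labels says more of how the 3 samples of a group were obtained, so p-values measure the spread between these samples. Of 8 markers of classical dendritic cells, all 8 had negative fold changes, with a median of -1.16, and 0 passed the test (limma, adjusted over all genes). At an unadjusted p below 0.05, 7 were lower (limma), against 673 of all 16708 genes tested. In 3 of the 8, all DT mice lay below all PBS mice, as in 1135 of all genes. The markers had a median SD within groups of 0.752 on the log2 scale. Their summed level was 110 to 138 RPM in DT and 151 to 214 RPM in PBS.

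The promoters of the members are shown first, as background. Whether their motifs bear on how these genes vary across mice was not tested. RefSeq promoter sequences (build GRCm38.p6, which has the coordinates of mm10) were at hand for 14 of the 16 S phase genes and 16 of the 20 G2 and M genes. Entries for Mcm4, Ccne2, Ccna2, Aurkb, Tpx2 and Kif20a were missing. Each window ran from 250 bases before to 50 bases after the annotated start. The CHR element TTTGAA was found, on either strand, in the promoters of 11 of 16 G2 and M genes, 2 of 14 S phase genes and 20.2% of all genes in the table. The CCAAT box (CCAAT, either strand) was found in 14 of 16 G2 and M genes, 9 of 14 S phase genes and 41.1% of all genes. An E2F site (TTTCCCGC, TTTGGCGC, TTTCGCGC or TTTGCCGC, either strand) was found in 6 of 14 S phase genes, 1 of 16 G2 and M genes and 2.6% of all genes. Matches to different motifs shared a base in 1 of the members' 31 promoters. A match describes the sequence, not a bound site.

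The 150 bases before the start are given for 4 mitotic and 2 replication genes, from 5′ to 3′ on the strand of the gene, chosen with their sequences in view to show the motifs just counted. Capitals mark CCAAT, CHR and E2F matches, and positions count back from the start, with -1 the base before it.
Cdk1, chr10:69352913-69353062, minus strand: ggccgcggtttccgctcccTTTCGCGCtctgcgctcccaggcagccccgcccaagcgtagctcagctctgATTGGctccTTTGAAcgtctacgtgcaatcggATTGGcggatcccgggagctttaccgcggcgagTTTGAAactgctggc
Ccnb2, chr9:70421555-70421704, minus strand: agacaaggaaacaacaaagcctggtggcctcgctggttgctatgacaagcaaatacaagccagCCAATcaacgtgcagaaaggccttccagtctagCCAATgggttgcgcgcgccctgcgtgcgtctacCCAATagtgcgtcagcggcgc
Top2a, chr11:99024190-99024339, minus strand: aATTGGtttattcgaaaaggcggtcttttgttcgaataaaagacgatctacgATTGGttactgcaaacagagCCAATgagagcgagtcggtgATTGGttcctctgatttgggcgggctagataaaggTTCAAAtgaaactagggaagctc
Kif11, chr19:37376232-37376381, plus strand: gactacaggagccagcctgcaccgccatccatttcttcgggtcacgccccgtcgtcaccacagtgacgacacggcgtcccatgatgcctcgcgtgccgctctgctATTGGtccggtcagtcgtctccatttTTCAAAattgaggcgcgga
Mcm6, chr1:128359706-128359855, minus strand: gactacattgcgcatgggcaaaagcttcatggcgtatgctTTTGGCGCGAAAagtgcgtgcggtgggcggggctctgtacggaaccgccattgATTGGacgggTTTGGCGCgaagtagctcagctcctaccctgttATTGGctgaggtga
Hells, chr19:38930840-38930989, plus strand: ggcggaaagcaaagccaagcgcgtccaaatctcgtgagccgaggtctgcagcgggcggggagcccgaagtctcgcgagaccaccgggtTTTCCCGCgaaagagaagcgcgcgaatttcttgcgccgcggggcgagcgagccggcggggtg
In Cdk1 the window holds CCAAT matches at -80 and -48, CHR matches at -71 and -15 and an E2F match at -131. Ccnb2 holds 3 CCAAT matches, at -87, -54 and -21. Top2a has 4 CCAAT matches and a CHR match at -23, and Kif11 a CCAAT match at -45 and a CHR match at -19. Mcm6 has E2F matches at -110, -106 and -47, of which the first 2 overlap, and Hells has an E2F match at -62.

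No member passed the test between toxin-treated and vehicle-treated lungs, and the levels of the 2 groups overlapped in every member. Of the 36, 0 rose and 0 fell at an adjusted p below 0.05 (limma, Benjamini-Hochberg over 16708 genes), where 0.281% of all genes passed, 0.275% higher and 0.00599% lower in DT. At an unadjusted p below 0.05 the count was again 0 of 36, against 9.03% of all genes, and limma-voom on the recovered reads also called 0. In 0 of 36 members did the groups separate without overlap, against 14.4% of all genes. Adjusted p-values of the members ran from 0.562 for Mki67 to 0.986 for Ccne2. All 20 G2 and M genes and 11 of the 16 S phase genes had positive fold changes, where 50.4% of all genes did, and the medians were 0.16 for G2 and M, 0.04 for S and 0.00 for all genes tested. Without PBS mouse 2, 7 of 20 and 4 of 16 were positive, against 45.9% of all genes. Without DT mouse 1, 12 of 20 and 5 of 16 were positive, against 43.3% of all genes. Without any of the other 4 mice, all 20 G2 and M genes and 13 to 15 of the 16 S phase genes were positive. The share of all genes was then 48.9% to 57.0%.

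**Figure D1:**
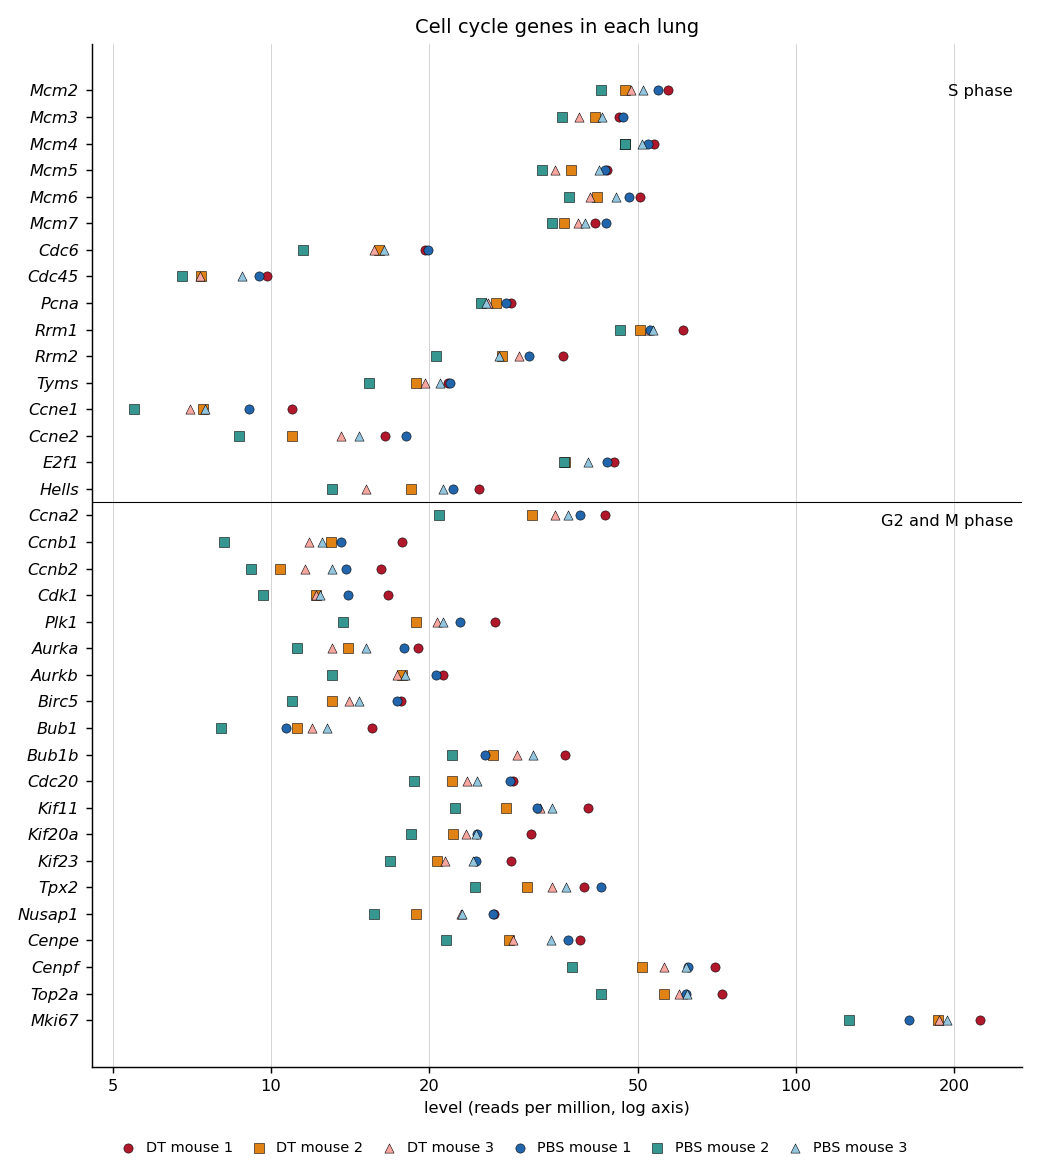
Level of each of the 36 genes (rows) in RPM on a log axis, with a symbol for each of the 3 DT and 3 PBS mice. PBS mouse 2 is the lowest of the 6 in 35 rows and DT mouse 1 the highest in 30, and in every row the 2 groups overlap.

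What the members shared was their order across mice. PBS mouse 2 had the lowest level of the 6 mice in 35 of 36 members, where it was the lowest in 17.9% of all genes tested. The exception was Mcm4, where it was level with DT mice 2 and 3. DT mouse 1 had the highest level in 30 of 36 members, where it was the highest in 30.5% of all genes. In the other 6, Mcm3, Mcm7, Cdc6, Tyms, Ccne2 and Tpx2, PBS mouse 1 was the highest, as it was in 30.7% of all genes. Within its own group, DT mouse 1 lay above both other DT mice in 36 of 36 members, against 51.5% of all genes. Likewise, PBS mouse 2 lay below both other PBS mice in 36 of 36, against 38.6% of all genes. DT mouse 1 had the smallest library, at 16766383 reads, and the largest share of its total in listed genes, at 73.1%. PBS mouse 2 had the smallest such share, at 69.8%. The part of these in the order of the mice was not tested. Scaling to the reads in listed genes left 30 of 36 fold changes positive, but the sign of a fold change does not describe that order.

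The swing was wider in the mitotic genes. On the log2 scale the median G2 and M gene stood 0.34 above the mean of the 6 mice in DT mouse 1 and 0.45 below it in PBS mouse 2 (a deviation of -0.45), while the median S phase gene stood 0.20 above and 0.23 below (a deviation of -0.23). For all genes tested these medians were 0.03 and -0.02. The SD within groups on the log2 scale had a median of 0.281 over G2 and M genes, 0.186 over S phase genes and 0.096 over all genes tested. The coefficient of variation between the 3 mice was 4.93% to 25.7% in DT and 5.08% to 34.4% in PBS, over the 36 members. Counting error at their mean read numbers gives 1.74% to 8.34%. The ratio of the highest to the lowest PBS mouse exceeded the ratio of the group means in 36 of 36 members. A ratio of extremes over 3 mice tends to exceed a ratio of means in any gene. The share over all genes was not computed, so that count sets the members apart from nothing.

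**Figure D2:**
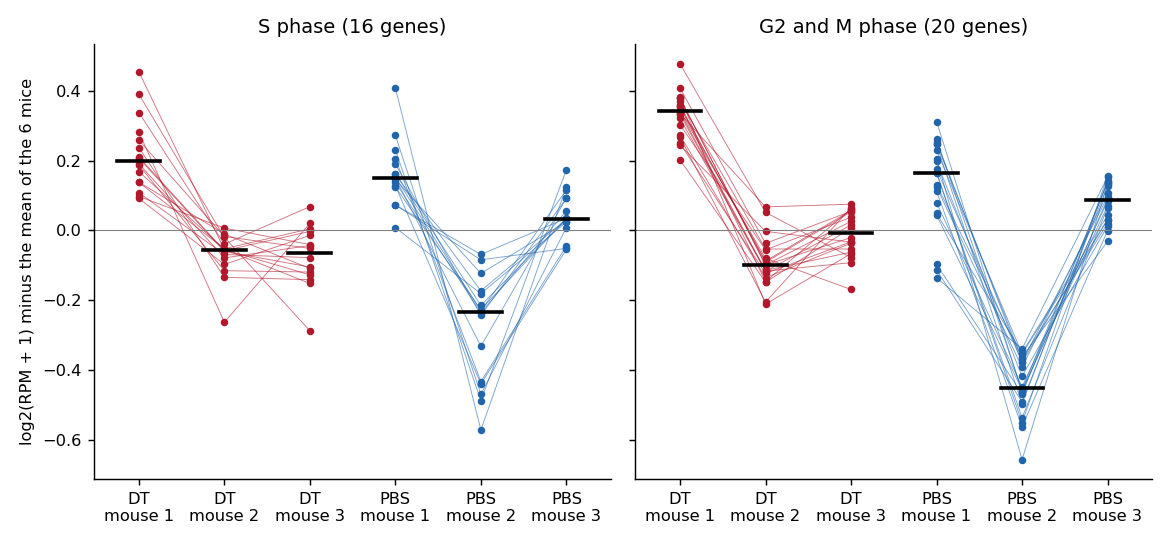
Deviation of log2(RPM + 1) from the mean of the 6 mice, for 16 S phase genes (left) and 20 G2 and M genes (right). Thin lines join the same gene within a group and black bars are medians, which stand at 0.34 in DT mouse 1 and -0.45 in PBS mouse 2 for G2 and M genes.

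The replicative helicase genes had group means close to each other, and none passed the test. Mcm2 to Mcm7 encode the 6 subunits of the ring that unwinds DNA at replication forks, and their fold changes lay between -0.03 and 0.05. Mcm2 (ENSMUSG00000002870, mm10 chromosome 6, 88883475 to 88898780) had 57.1, 47.2 and 48.4 RPM in DT mice 1 to 3, against 54.5, 42.5 and 51.1 RPM in PBS mice 1 to 3. DT mouse 1 and PBS mouse 1 were high and PBS mouse 2 low, so the groups overlapped. Mcm4 (chromosome 16, 15623897 to 15637400) had 53.6, 47.3 and 47.0 RPM in DT mice 1 to 3, against 52.3, 47.3 and 50.9 RPM in PBS mice 1 to 3, with a fold change of -0.03 ± 0.07 and a 95% interval of -0.18 to 0.13. Differences of more than 0.18 downward or 0.13 upward on the log2 scale lie outside that interval. Summed over the 6 subunits, DT mice had 292, 251 and 248 RPM and PBS mice 288, 230 and 272 RPM. Per kilobase of exon, Mcm4 was the most abundant subunit, at 13.7 RPM per kb in DT and 14 in PBS.

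Licensing and clamp genes overlapped between the groups too. Cdc6 loads the helicase onto origins, and it had 19.7, 16.1 and 15.7 RPM in DT mice 1 to 3, against 19.9, 11.5 and 16.4 RPM in PBS mice 1 to 3 (fold change 0.13 ± 0.18, adjusted p = 0.894, limma). The 2 highest values were those of PBS mouse 1 and DT mouse 1. Cdc45, a part of the active helicase, differed by -0.03 ± 0.16, but its span overlaps Ufd1l on the other strand, and strand use in counting is not given. Pcna, the sliding clamp of DNA polymerase, had the smallest SD within groups on the log2 scale, at 0.075, with 28.6, 26.8 and 25.9 RPM in DT mice 1 to 3, against 28.1, 25.1 and 25.7 RPM in PBS mice 1 to 3. Its fold change was 0.04 ± 0.07, with an interval of -0.12 to 0.21. Pcna and Tyms each have annotated pseudogenes, as do Ccnb1 and Ccnb2, and reads shared with such copies were not separated here.

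The 3 genes of nucleotide supply had positive fold changes, and 0 of 3 passed. Rrm2, the subunit of ribonucleotide reductase that is made in S phase (mm10 chromosome 12, 24708241 to 24714146), had 36, 27.5 and 29.7 RPM in DT mice 1 to 3, against 31.0, 20.6 and 27.2 RPM in PBS mice 1 to 3. The value in DT mouse 1 was the highest and that in PBS mouse 2 the lowest, with the other 4 between 27.2 and 31.0 RPM. Its fold change of 0.24 ± 0.15 was the largest among S phase genes (adjusted p = 0.695, limma) and was 0.09 without PBS mouse 2. Rrm1, the partner subunit, differed by 0.10 ± 0.08, and Tyms, which makes thymidylate, by 0.06 ± 0.13.

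Cyclin E genes varied widely between mice of 1 group. Ccne2, which with Cdk2 starts replication, had 16.5, 11 and 13.6 RPM in DT mice 1 to 3, against 18.1, 8.69 and 14.7 RPM in PBS mice 1 to 3. The PBS mice alone spanned a ratio of 2.08, the widest of the 36 genes, while the group means were 13.7 RPM in DT and 13.8 RPM in PBS. Its interval, -0.54 to 0.59, is wide, and differences inside it were not excluded with 3 mice per group. Ccne2 overlaps Ints8 on the other strand. Ccne1 differed by 0.18 ± 0.21. E2f1, the activator of these genes, differed by -0.03 ± 0.10, and Hells, a chromatin remodeller of replicating cells, by 0.06 ± 0.22.

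Mitotic cyclins and their kinase all had positive fold changes and none passed. Cdk1, the kinase that drives entry into mitosis (mm10 chromosome 10, 69336635 to 69352938), had 16.7, 12.2 and 12.2 RPM in DT mice 1 to 3, against 14, 9.65 and 12.4 RPM in PBS mice 1 to 3. Apart from DT mouse 1 and PBS mouse 2, the mice lay between 12.2 and 14 RPM. Ccnb1, its main mitotic cyclin (chromosome 13, 100778650 to 100786570), had 17.8, 13 and 11.8 RPM in DT mice 1 to 3, against 13.6, 8.15 and 12.5 RPM in PBS mice 1 to 3, and its fold change of 0.30 ± 0.21 (interval -0.17 to 0.77, adjusted p = 0.731, limma) was 0.09 without PBS mouse 2. Ccna2, the cyclin of S and G2 (chromosome 3, 36564866 to 36572150), had 43.2, 31.4 and 34.8 RPM in DT mice 1 to 3, against 38.8, 20.9 and 36.8 RPM in PBS mice 1 to 3. PBS mouse 2 stood far below the other 5 mice, and without it the sign turned, to -0.06 in place of 0.21. Ccna2 overlaps Exosc9 on the other strand. Ccnb2 differed by 0.07 ± 0.20.

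In the kinase and passenger complex genes, DT mouse 1 was again the highest and PBS mouse 2 the lowest. Plk1, a kinase of centrosomes and mitotic exit (chromosome 7, 122159437 to 122169875), had 26.7, 18.9 and 20.7 RPM in DT mice 1 to 3, against 22.9, 13.7 and 21.3 RPM in PBS mice 1 to 3, a fold change of 0.20 ± 0.19 and an interval of -0.24 to 0.65. Without PBS mouse 2 its fold change was -0.01. Aurka, the spindle pole kinase, differed by 0.06 ± 0.19. Aurkb and Birc5, which encode the kinase and the survivin subunit of the chromosomal passenger complex, differed by 0.14 ± 0.16 and 0.06 ± 0.17. Their levels were 17.4 to 21.3 RPM and 13.1 to 17.7 RPM in DT, against 13.1 to 20.6 RPM and 11 to 17.4 RPM in PBS.

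In the checkpoint genes Bub1 and Bub1b, PBS mouse 3 and not PBS mouse 1 was the highest of its group. Bub1, a checkpoint kinase at kinetochores (chromosome 2, 127801122 to 127831865), had 15.6, 11.2 and 12 RPM in DT mice 1 to 3, against 10.7, 8.05 and 12.8 RPM in PBS mice 1 to 3. All 3 DT mice lay above PBS mice 1 and 2, but PBS mouse 3 was above DT mice 2 and 3. Its fold change was 0.29 ± 0.18 (interval -0.13 to 0.70, adjusted p = 0.701, limma). Bub1b, the partner that restrains the anaphase-promoting complex, had 36.3, 26.5 and 29.4 RPM in DT mice 1 to 3, against 25.6, 22.1 and 31.5 RPM in PBS mice 1 to 3, with a fold change of 0.21 ± 0.15. Cdc20, the activator of that complex, had a fold change of 0.06 ± 0.16, with PBS mouse 1 at 28.5 RPM next to DT mouse 1 at 28.9 RPM. It overlaps Elovl1 on the other strand. PBS mouse 3 exceeded PBS mouse 1 in 5 G2 and M genes, Bub1, Bub1b, Kif11, Top2a and Mki67, and PBS mouse 1 was the highest PBS mouse in the other 15.

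Motor, spindle and kinetochore genes had fold changes between 0.04 and 0.18. Kif11, the motor that pushes spindle poles apart (chromosome 19, 37376403 to 37421859), had 40.2, 28.0 and 32.5 RPM in DT mice 1 to 3, against 32.1, 22.4 and 34.3 RPM in PBS mice 1 to 3, a fold change of 0.18 ± 0.17. DT mouse 1 was highest, PBS mouse 2 lowest, and the other mice mixed. Kif20a and Kif23, motors of the central spindle needed for cytokinesis, differed by 0.17 ± 0.15 and 0.11 ± 0.17, and Kif20a overlaps Cdc23 on the other strand. Tpx2, which activates Aurora A on microtubules (chromosome 2, 152847964 to 152895321), had 39.4, 30.7 and 34.3 RPM in DT mice 1 to 3, against 42.6, 24.5 and 36.4 RPM in PBS mice 1 to 3. It had the smallest fold change of the 20 (0.04 ± 0.18), with PBS mouse 1 above all DT mice. Nusap1, a microtubule bundling protein whose gene overlaps Oip5, differed by 0.08 ± 0.19. The kinetochore genes Cenpe and Cenpf differed by 0.07 ± 0.20 and 0.15 ± 0.19, and Cenpf ran from 51.0 to 70.0 RPM in DT and from 37.5 to 62.2 RPM in PBS.

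Mki67 and Top2a had the highest read counts of the mitotic genes. Mki67 encodes Ki-67, a coat protein of mitotic chromosomes used to count dividing cells (ENSMUSG00000031004, mm10 chromosome 7, 135689788 to 135716379), and it had 224, 186 and 187 RPM in DT mice 1 to 3, against 164, 126 and 194 RPM in PBS mice 1 to 3. The means were 199 ± 21.5 RPM in DT and 161 ± 34 RPM in PBS (SD, n = 3 each), and PBS mouse 3 lay above DT mice 2 and 3. Its fold change of 0.32 ± 0.14 was the largest of the 36, with an interval of -0.01 to 0.65, an unadjusted p of 0.0585 and an adjusted p of 0.562 (limma). Its fold change stayed positive with any single mouse left out, at its smallest 0.15 when PBS mouse 2 was dropped and at its largest 0.46 when PBS mouse 3 was dropped. With DT mouse 1 and PBS mouse 2 both dropped it was 0.06. Top2a, the topoisomerase that untangles sister chromatids (chromosome 11, 98992943 to 99024189), had 72.2, 56.1 and 59.9 RPM in DT mice 1 to 3, against 61.7, 42.5 and 61.9 RPM in PBS mice 1 to 3, a fold change of 0.19 ± 0.15 and an adjusted p of 0.768 (limma). Per kilobase of exon, Mki67 was the most abundant member, at 19.8 RPM per kb in DT and 16 in PBS, and Cdc45 the least, at 2.34 and 2.38. These densities use GENCODE M21 exon lengths and assume that reads were counted in exons.

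**Figure D3:**
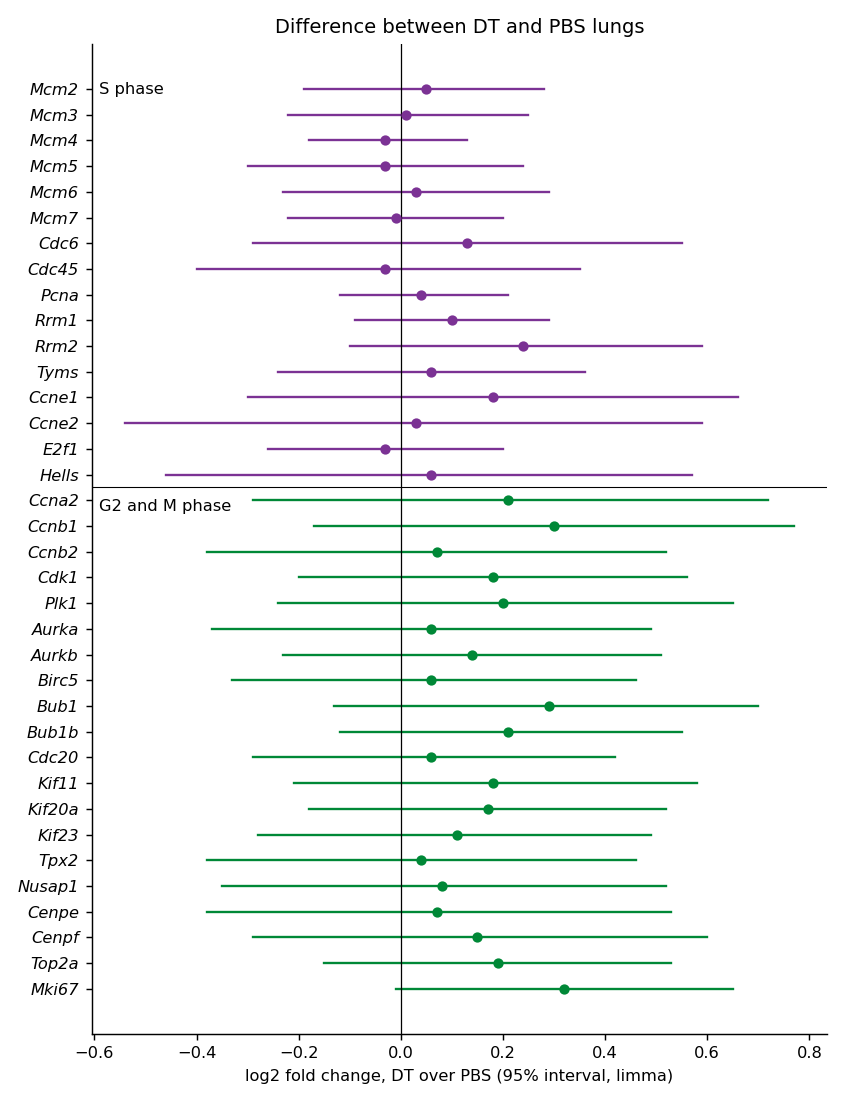
Log2 fold change of DT over PBS for each member (points) with its 95% interval from limma (bars), S phase genes above and G2 and M genes below. All 36 intervals include 0, and Mki67, at 0.32, has the lower bound nearest to it among G2 and M genes, at -0.01.

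The summed levels moved in both directions when single mice were left out. Summed over the 20 G2 and M genes, levels were 831, 633 and 668 RPM in DT mice 1 to 3 and 700, 471 and 707 RPM in PBS mice 1 to 3. The ratio of group means was 1.13, and it was 1.01 without PBS mouse 2 and 1.04 without DT mouse 1. Leaving out any of the other 4 mice raised it, to 1.17 without DT mouse 3, 1.2 without DT mouse 2 and 1.21 without PBS mouse 1 or PBS mouse 3. For the 16 S phase genes the sums were 566, 472 and 470 RPM in DT and 544, 419 and 508 RPM in PBS, a ratio of 1.03. It was 0.955 without PBS mouse 2 and 0.96 without DT mouse 1, and 1.04 to 1.09 without any of the other 4. With DT mouse 1 and PBS mouse 2 left out together, a choice made after the data were seen, 35 of 36 fold changes were negative and 0 passed. The exception was Mki67, at 0.06, and 40.3% of all genes were positive in that fit. At an unadjusted p below 0.05 were 7 of the 36 (limma), against 522 genes higher and 522 lower of all 16708. DT mouse 1 was the highest DT mouse and PBS mouse 2 the lowest PBS mouse in every member, so leaving out either could only lower the fold changes. The direction of these shifts was fixed by the choice, and only their size is described. The count of 7 rests on that choice too. Within each mouse, the G2 and M sum divided by the S sum was 1.47, 1.34 and 1.42 in DT, against 1.28, 1.13 and 1.39 in PBS. PBS mouse 3 lay inside the DT range in that ratio.

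**Figure D4:**
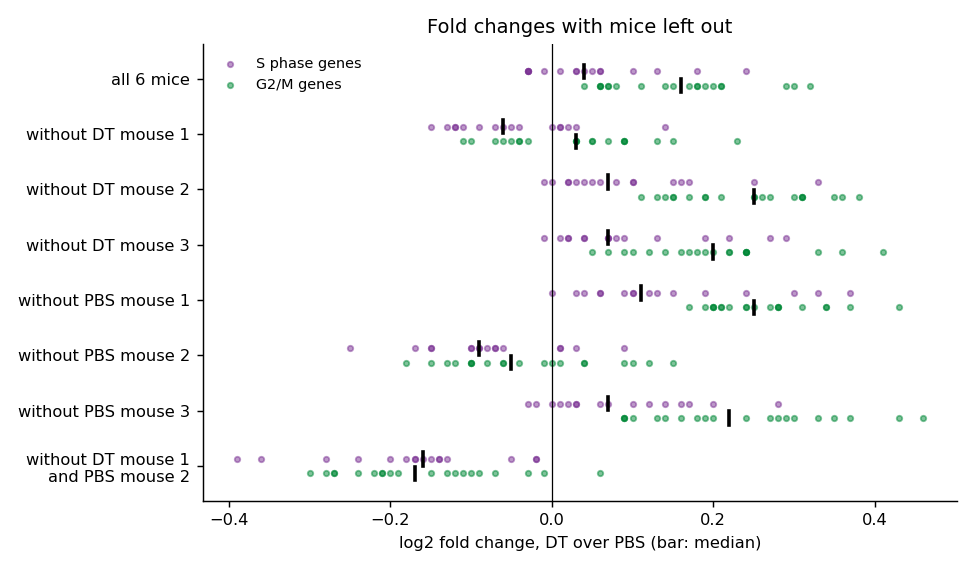
Fold changes of S phase and G2 and M genes (points, with medians as bars) with all 6 mice and with mice left out. Medians are 0.04 and 0.16 with all mice, -0.09 and -0.05 without PBS mouse 2, and -0.16 and -0.17 without DT mouse 1 and PBS mouse 2, a pair whose removal could only lower them.

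Other genes of the same processes were examined from wider lists. Over all 16708 genes tested, 836 were higher and 673 lower at an unadjusted p below 0.05 (limma). Of 58 further S phase genes, 0 passed in either direction by limma (1 higher and 0 lower at an unadjusted p below 0.05), the median fold change was 0.02, and PBS mouse 2 was the lowest of the 6 in 45. Dnmt1, the maintenance DNA methyltransferase, differed by 0.04 ± 0.06, and E2f2 by 0.19 ± 0.08. Of 64 further G2 and M genes, 0 passed (unadjusted, 1 higher and 0 lower), the median was 0.11, 52 were positive, and PBS mouse 2 was the lowest in 58. Ect2, which positions the cleavage furrow, had the smallest p of that list, with 27.3, 19.4 and 19.7 RPM in DT mice 1 to 3, against 17.9, 12.6 and 17.9 RPM in PBS mice 1 to 3. All 3 DT mice lay above all 3 PBS mice, by a fold change of 0.43 ± 0.17 that did not pass (adjusted p = 0.517, limma). Ect2 was the only 1 of the 64 with such a separation, which 1278 of all 16708 genes tested had. The condensin subunit Smc4 differed by 0.08 ± 0.06 and the citron kinase gene Cit by -0.13 ± 0.11.

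Regulators upstream of division did not pass either. The lists share some genes, which count in each. E2f2 is in the further S phase and G1 lists, Foxm1 in the further G2 and M and MuvB lists, and Cdkn1a in the CDK inhibitor and p53 lists. Of 13 G1 cyclins, kinases and growth-phase factors, 0 passed by limma (unadjusted, 2 higher and 1 lower). Myc, a transcription factor that promotes entry into the cycle, had 46.5, 47.4 and 50.4 RPM in DT mice 1 to 3, against 35.0, 26.9 and 35.4 RPM in PBS mice 1 to 3. The groups did not overlap, the fold change was 0.56 ± 0.10 and the adjusted p was 0.103 (limma). Of the 13, Myc alone lay wholly higher in DT and 2 lay wholly lower. Over all 16708 genes tested, 1278 lay wholly higher and 1135 wholly lower. The D cyclins Ccnd1 and Ccnd2 differed by 0.13 ± 0.07 and 0.04 ± 0.05. Of 17 CDK inhibitors, pocket proteins and brakes, 0 passed (unadjusted, 0 higher and 1 lower), with a median of 0.02, and Cdkn1b, which encodes p27, differed by -0.04 ± 0.06. E2f6, a repressor of the family, was at 37.0 to 39.7 RPM in DT and 41.8 to 43.0 RPM in PBS, a difference of -0.13 ± 0.05 that did not pass (adjusted p = 0.529). Of 11 MuvB, Myb and FoxM1 regulators, 0 passed (unadjusted, 0 higher and 0 lower), with Tfdp2, a dimer partner of E2F, at 0.09 ± 0.07. Of 16 p53 targets, 0 passed (unadjusted, 1 higher and 0 lower), with a median of 0.02, and Aen, a nuclease gene induced by p53, differed by 0.17 ± 0.05 (adjusted p = 0.367, limma).

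Other features of these lungs separated the groups where the members did not. Of 22 replication-dependent histone genes tested, 4 rose (Hist1h3i, Hist1h2bn, Hist1h2ac and Hist1h3d, limma), where 0.275% of all genes did. Without overlap, 16 of the 22 lay higher in DT, against 1278 of all 16708 genes tested. The fold changes of the 4, in that order, were 1.75, 1.63, 1.6 and 1.16. That of Hist1h3i was 3.06 with a pseudocount of 0.25 RPM and 4.62 with none, so its size depends on that setting. With the replicate number as a block 0 of these 4 passed, at adjusted p of 0.109, 0.0929, 0.0563 and 0.111 (limma). Hist1h2ac and Hist1h3d also missed the threshold under every other scaling, without the filter, without a pseudocount and by limma-voom, at adjusted p from 0.0518 to 0.103. Without DT mouse 1 none of the 4 passed, at adjusted p from 0.0849 to 0.223 (limma). Without DT mouse 3, Hist1h3i alone of them passed, and Hist1h3d passed without PBS mouse 1 but not without any other single mouse. The histone list summed to 67.4, 79.1 and 71.7 RPM in DT and 39.8, 35.8 and 36.3 RPM in PBS. Within the DT group the histone sum was lowest in DT mouse 1, the mouse with the highest S phase sum. Histone copies are near-identical, and the libraries were made with an mRNA kit, while most histone transcripts of dividing cells lack a poly(A) tail.

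Erythroid precursor markers are set beside the members because red cell precursors divide. Of 17 tested, 12 rose (limma), where 0.275% of all genes did. The list was chosen with earlier results of these data known, so that count is not an independent test. Among the 12 were Epb42 (2.81 ± 0.21) and Ermap (2.38 ± 0.22), which encode red cell membrane proteins, and Trim10 (2.12 ± 0.22). Adjusted p of these ran from 0.0058 to 0.0102 (limma). With the replicate number as a block, Epb42 and Ermap passed, at adjusted p of 0.0191 and 0.0464, and Trim10 did not, at 0.111 (limma). Without DT mouse 1, 0 genes in the whole table passed by limma (630 higher and 497 lower at an unadjusted p below 0.05). The list summed to 539, 447 and 431 RPM in DT and 193, 213 and 260 RPM in PBS. DT mouse 1 was the highest of the 6 mice in 12 of the 17 and PBS mouse 2 the lowest in 11. The part of red cell precursors in the members' levels was not tested. The median fold change was 2 in that list and 0.16 in the G2 and M genes. Markers of other cells with dividing pools did not pass. Of 9 alveolar macrophage markers 0 passed, with a median fold change of -0.05 and 2 lower at an unadjusted p below 0.05 (limma). Capillary endothelium markers, also with 0 of 9 past the test, summed to 683 to 742 RPM in DT and 688 to 765 RPM in PBS. In neutrophil precursors the sums were 98.8 to 138 RPM in DT and 85.5 to 101 RPM in PBS, and in B and plasma cells 138 to 159 RPM in DT and 149 to 186 RPM in PBS. The neutrophil precursor sum covers 12 genes, of which 7 passed the filter. These lists are not separate, as Chil3 is in the neutrophil precursor and alveolar macrophage lists. Car4 is in the alveolar macrophage and capillary lists. All 7 neutrophil precursor markers tested had positive fold changes (median 0.36), and 3 were higher at an unadjusted p below 0.05 (limma). Of 8 B and plasma cell markers, 7 had negative fold changes (median -0.36) and 3 were lower at that level. Over all 16708 genes tested, 836 were higher and 673 lower at that level.

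**Figure D5:**
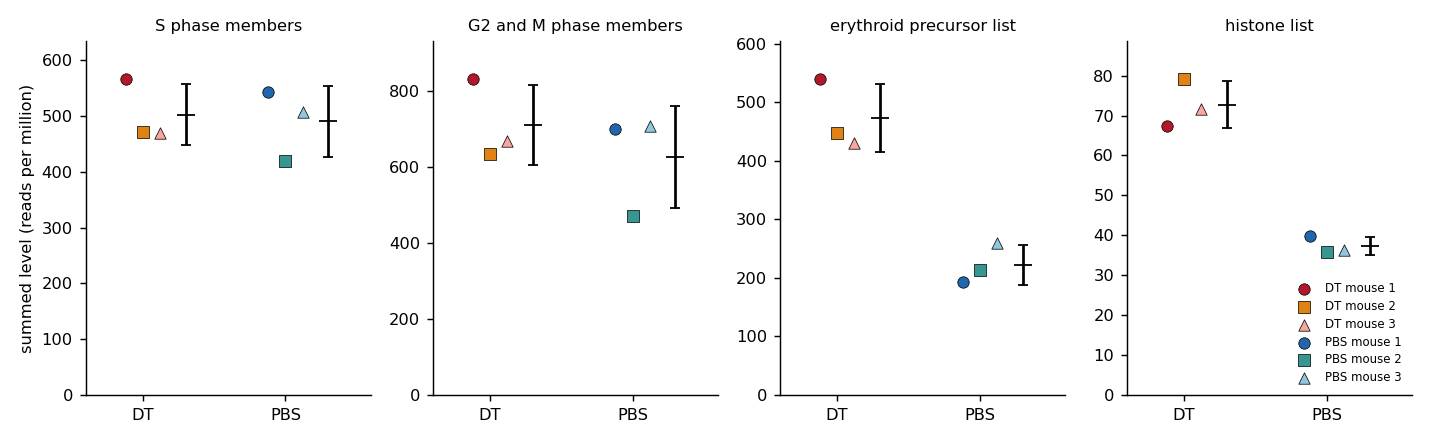
Summed level in RPM, from 0, of the S phase members, the G2 and M members, the erythroid precursor list and the histone list, by mouse, with the mean and SD of each group of 3. The groups overlap in the first 2 panels and separate in the last 2.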

How the data were processed

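The authors deposited log2 reads-per-million (RPM) values for 25965 genes in 6 whole-lung libraries. FastQC, Trimmomatic and build mm10 stand in the submitters' processing notes, with no roles stated. Aligner, gene counter and strand setting: not given in the sources used here. Libraries were made with an mRNA kit, per the labels' protocols. Back on the linear scale, 100% of the deposited values above the placeholder were whole multiples of 1 read (tolerance 0.1%), which gave the total reads. Listed genes held 69.8% to 73.1% of that total. Groups came from the sample titles. limma 3.58.1 (R 4.3.3) with a mean-variance trend tested DT against PBS on log2(RPM + 1), 2-sided, over 16708 genes with at least 0.538 RPM (10 reads at median depth) in 3 libraries and 15 reads in all, with Benjamini-Hochberg adjustment at 0.05. The test was checked on simulated data. Members and lists were chosen with earlier results of these data known. Named genes are all 36 members and, of each other list, some of those past the test, most abundant or with the smallest p. Members matched by symbol; some genes of other lists carry older symbols in the files (Epb4.2) and were matched by Ensembl identifier. Alternatives were other scalings, no filter, a pseudocount of 0.25 RPM or none, limma-voom on recovered reads, a replicate block and leaving out mice. Scaling to listed genes and leaving out DT mouse 1 with PBS mouse 2 were added after the data were seen. Intervals cover the spread between 3 mice per group. Plots used matplotlib 3.10.9.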

Additional observations from a re-analysis of the deposited data

How the results depend on the processing

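The members' result, 0 of 36 past the test, held under all 15 alternatives tried, and each member's direction held under median-of-ratios and upper-quartile scaling, no filter, the other pseudocounts, limma-voom and the block, with 1 member at 0.00 under upper-quartile scaling. The exception among scalings was Mcm3, at -0.01 when scaled to the reads in listed genes (0.01 before). Leaving out mice turned more. With 1 mouse left out at a time, or DT mouse 1 and PBS mouse 2 together, the median fold change ran from -0.16 to 0.11 for S phase and from -0.17 to 0.25 for G2 and M genes. Over the same settings, the lowest and highest log2 fold changes were -0.14 and 0.12 for Mcm2, -0.16 and 0.10 for Mcm3, -0.13 and 0.01 for Mcm4, -0.24 and 0.04 for Mcm5, -0.18 and 0.10 for Mcm6, -0.15 and 0.06 for Mcm7, -0.17 and 0.30 for Cdc6, -0.28 and 0.06 for Cdc45, -0.02 and 0.09 for Pcna, -0.05 and 0.15 for Rrm1, -0.02 and 0.37 for Rrm2, -0.14 and 0.15 for Tyms, -0.17 and 0.33 for Ccne1, -0.39 and 0.24 for Ccne2, -0.20 and 0.03 for E2f1, -0.36 and 0.22 for Hells, -0.19 and 0.37 for Ccna2, -0.07 and 0.43 for Ccnb1, -0.28 and 0.19 for Ccnb2, -0.10 and 0.28 for Cdk1, -0.15 and 0.34 for Plk1, -0.27 and 0.20 for Aurka, -0.12 and 0.27 for Aurkb, -0.22 and 0.21 for Birc5, -0.01 and 0.43 for Bub1, -0.03 and 0.35 for Bub1b, -0.21 and 0.19 for Cdc20, -0.13 and 0.30 for Kif11, -0.11 and 0.26 for Kif20a, -0.20 and 0.20 for Kif23, -0.27 and 0.21 for Tpx2, -0.24 and 0.24 for Nusap1, -0.30 and 0.22 for Cenpe, -0.21 and 0.28 for Cenpf, -0.09 and 0.28 for Top2a, -0.06 and 0.07 for Dnmt1, -0.01 and 0.12 for Smc4, -0.01 and 0.07 for Ccnd2 and -0.09 and 0.02 for Cdkn1b. Without turning, they were 0.06 and 0.46 for Mki67, -0.28 and -0.01 for Cit, 0.01 and 0.14 for Tfdp2, 0.05 and 0.18 for Ccnd1, 0.12 and 0.25 for E2f2 and 0.12 and 0.51 for Ect2. The number of genes higher in DT, 46, ran from 0 (without DT mouse 1) to 56 (without PBS mouse 1), and the number lower, 1, from 0 to 90 (without DT mouse 2). The number lower was 0 under median-of-ratios scaling and 2 under upper-quartile scaling and under scaling to reads in listed genes. The labels do not say whether same-numbered mice were paired. Over genes, their deviations correlated at 0.084, 0.268 and -0.1, against -0.256 to 0.142 for mice of different numbers. Deviations within a group sum to 0, so these correlations depend on each other and cannot decide whether mice were paired. With the replicate number as a block, 8 genes were higher and 0 lower. The cause of these shifts was not tested. With 3 mice per group, the intervals of all 20 G2 and M genes reach beyond 0.4 on the log2 scale, so differences of that size were not excluded. These intervals are not adjusted over genes and do not give a limit of detection. Myc, at 0.56, did not pass either (adjusted p = 0.103, limma).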
